A study of Homo sapiens with 6 samples.

Results

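The transcripts described here are long intergenic noncoding RNAs that carry a LINC number, measured in the human pancreatic beta cell line EndoC-βH1 with and without a cocktail of inflammatory cytokines. A locus was taken when its only symbol in the authors' deposited count table was LINC followed by digits and its mean over 6 libraries was at least 20 normalized counts. This rule kept 127 loci, with 125 symbols, of 61695 loci in that table. LINC00106 and LINC00685 were each listed on both the X and the Y copy of a region shared by these chromosomes, so the same reads stand in the table on both copies. In all, 867 loci carried a single LINC symbol: 274 of them had no reads and 466 had reads but a mean under the limit. The loci were chosen by their mean count, so their abundance is a description and not a finding.

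The cytokine group held 3 libraries of cells exposed for 24 h to IL-1β at 5, TNF-α at 10, IFN-γ at 50 and IL-17 at 100 ng/ml. The control group held 3 libraries of the same line without cytokines. All cells were seeded at 75000 per well in 11 mM glucose and left to attach for 24 h before any cytokine was added. The labels call the control cells unexposed and earlier, while the extraction protocol gives them 24 h without cytokines, so cytokine exposure and time in culture cannot be told apart from the labels alone. EndoC-βH1 is a single transformed line and lacks the other cells of an islet. Whether the 3 libraries of a group were separate cultures is not in the labels, so the errors may measure technical spread only. In bulk RNA, fewer cells with a transcript and less of it per cell cannot be told apart.

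Long noncoding RNAs are transcribed and spliced like messenger RNAs but are not known to be translated into long proteins, and many are retained in the nucleus. Some act on the gene next to which they are transcribed, others bind proteins or RNAs elsewhere, and for most numbered LINC loci no role is known. In beta cells they are known for marked tissue restriction, and some lie beside the transcription factor genes of the pancreas. A LINC number is given by position between genes, and several numbered transcripts were later found to encode small proteins.

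Per the authors' deposited count table, depth averaged 4.0882e+07 normalized counts a library, of which the 127 loci took 0.113%. The tables give each group's fit and no value for single libraries, so each level below is the authors' value for a group, and each error is the standard error (SE) of their fit. The line carried its labelled identity: 11 of 12 beta cell marker loci reached 20 counts in the authors' deposited table, where 2 were higher and 6 lower with cytokines. PDX1, a beta cell transcription factor, had 16950 counts with cytokines and 17183 in control cells and was not called in the authors' deposited table, while SLC30A8, the zinc transporter of insulin granules, had 21850 and 33893 counts in the same order. G6PC2, an islet glucose phosphatase gene, had 200.2 counts with cytokines and 670.1 in control cells in that deposited table, and the locus shared by IAPP, the islet amyloid gene, and SLCO1B genes had 704 and 148 counts in the same order. Of 5 markers of other endocrine cells 1 reached the limit, of 4 leukocyte markers 1 (CD68, in a locus shared with EIF4A1 and other genes), of 5 stromal and endothelial markers 1 (COL1A1), of 3 acinar markers 1 (CPA1), and of 3 ductal markers all 3, per the authors' deposited count table. COL1A1, a collagen gene, stood there at 1394 counts with cytokines and 532 in control cells, and KRT19, a keratin of ducts, at 3553 and 2937 counts in the same order. PRSS1, a defining acinar gene, had no reads, and GCG, the glucagon gene of alpha cells, had 4.26 counts with cytokines and 7.34 in control cells in that deposited table. The part of these marker differences in the LINC values was not tested.

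These RNAs were higher and lower with cytokines in about equal number. In the authors' deposited count table, 25 of the 127 loci (19.7%) were higher with cytokines and 28 (22.0%) were lower at a DESeq adjusted p under 0.05, and 74 were not called. The same test called 37.7% of all 30206 tested loci, and 61.1% of the 17213 loci with at least 20 counts, of which 27.7% were higher and 33.4% lower. So the called share of the LINC loci, 41.7%, lay under that of all loci above the same limit. Changes of at least 2-fold were found at 10 LINC loci with higher and 5 with lower levels in the authors' deposited table, beside 7.56% and 4.58% of all loci above the limit. The median log2 fold change was -0.03 over the LINC loci, with quartiles of -0.35 and 0.24, and also -0.03 over all loci above the limit in that deposited table. Summed over the 127 loci, the authors' deposited means gave 44877 counts with cytokines and 47426 in control cells. Of the 25 higher loci, 5 had a control mean under 20 counts and passed the limit through the cytokine group, and 2 of the 28 lower loci passed through the control group.

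**Figure D1:**
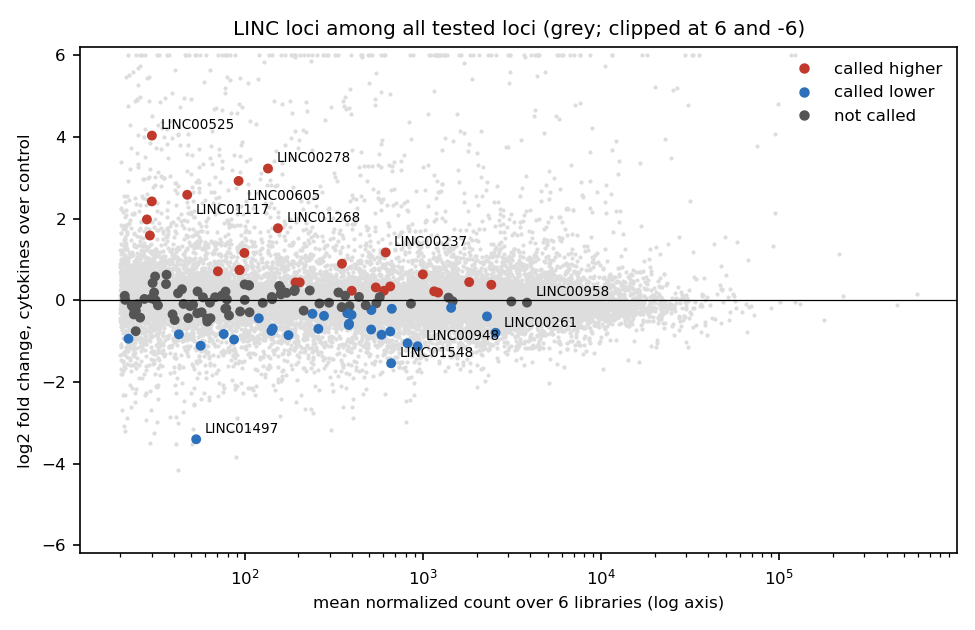
Log2 fold change, cytokines over control, against mean normalized count (log axis) for the 127 LINC loci, coloured by the deposited call, over all tested loci with at least 20 counts in grey. Called loci lie on both sides of 0, with 25 above and 28 below, and the strong changes are at low to middling counts.

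The LINC loci had lower counts than coding loci. The median mean count was 119.8 at the LINC loci, 1323 at single-symbol protein-coding loci and 54.7 at other single-symbol long noncoding RNA loci of the authors' deposited table, taking those with at least 20 counts. Of these coding loci that deposited table called 70.2%, with 30.2% higher and 40.0% lower, and of the other noncoding loci 31.2%, with 18.5% higher and 12.7% lower. Between 20 and 50 counts, 21.9% of the LINC loci and 25.1% of all loci were called in the authors' deposited table. Between 100 and 500 counts it called 42.5% of the LINC loci and 56.2% of all loci, and between 500 and 1000 counts 81.2% and 67.9% in that order. The share therefore lay under that of all loci in the 4 other bands and above it in that one, where it rests on 16 LINC loci. The SE of the log2 fold change ranged over the members between 0.0319 and 0.524, with a median of 0.181, in the authors' deposited table. At the limit itself, LINC01124 had 21.2, LINC01296 21.3 and LINC01529 22.2 mean counts, and just outside it LINC00628 had 18.4 and LINC00441 and LINC01474 18.3 each in that deposited table.

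Promoters are shown for 5 of the loci, chosen as one of the large rises, the largest fall, and 3 loci that hold a match to the gamma activated site, a promoter element named for interferon gamma. The sequences are 300 bases of RefSeq's GRCh38.p14, with 250 bases before and 50 after the annotated start, on the strand of the gene. LINC01117 (chr2:176637504-176637803, plus strand) and LINC01497 (chr17:69961457-69961756, plus strand) held no match to any motif searched. LINC01268 (chr6:113873298-113873597, minus strand), LINC01355 (chr1:23285469-23285768, minus strand) and LINC01135 (chr1:58784901-58785200, plus strand) have their match in capitals.
LINC01117 promoter: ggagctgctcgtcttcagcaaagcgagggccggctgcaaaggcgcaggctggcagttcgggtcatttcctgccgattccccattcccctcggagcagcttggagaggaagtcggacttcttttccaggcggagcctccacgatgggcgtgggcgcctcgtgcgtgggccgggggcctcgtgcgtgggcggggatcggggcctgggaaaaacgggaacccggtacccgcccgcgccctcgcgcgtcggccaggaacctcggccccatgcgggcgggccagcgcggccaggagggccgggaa
LINC01497 promoter: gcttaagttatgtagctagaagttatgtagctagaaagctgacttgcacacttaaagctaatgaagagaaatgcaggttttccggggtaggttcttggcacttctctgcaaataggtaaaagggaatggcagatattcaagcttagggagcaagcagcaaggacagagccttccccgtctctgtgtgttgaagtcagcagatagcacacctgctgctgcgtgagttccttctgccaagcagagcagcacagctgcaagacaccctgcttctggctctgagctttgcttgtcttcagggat
LINC01268 promoter: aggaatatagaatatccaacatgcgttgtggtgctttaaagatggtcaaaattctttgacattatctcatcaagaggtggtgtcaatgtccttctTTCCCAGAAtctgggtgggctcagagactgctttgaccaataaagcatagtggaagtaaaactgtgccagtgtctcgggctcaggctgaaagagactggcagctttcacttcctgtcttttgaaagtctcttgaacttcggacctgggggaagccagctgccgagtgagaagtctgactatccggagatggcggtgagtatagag
LINC01355 promoter: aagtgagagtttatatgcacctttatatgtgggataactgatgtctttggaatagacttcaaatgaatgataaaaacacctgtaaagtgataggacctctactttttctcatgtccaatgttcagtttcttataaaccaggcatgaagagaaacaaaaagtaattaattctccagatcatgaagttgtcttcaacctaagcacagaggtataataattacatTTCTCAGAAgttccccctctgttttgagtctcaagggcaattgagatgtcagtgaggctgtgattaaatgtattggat
LINC01135 promoter: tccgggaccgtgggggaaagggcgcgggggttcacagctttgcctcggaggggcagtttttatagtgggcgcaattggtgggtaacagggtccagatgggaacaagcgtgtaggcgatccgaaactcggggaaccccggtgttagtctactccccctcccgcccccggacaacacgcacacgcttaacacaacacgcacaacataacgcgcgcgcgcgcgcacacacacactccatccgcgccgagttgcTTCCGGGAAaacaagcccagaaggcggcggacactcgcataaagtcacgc
The motifs searched on both strands were the gamma activated site TTCNNNGAA, the core of the interferon-stimulated response element (GAAA, any 2 bases, GAAA), and a kappa B site (GGGA, any base, TTTCC), the element bound by NF-κB. Of 100 LINC symbols with a promoter in the table, 7 (7%) held the gamma activated site, against 7.66% of all 35116 promoters in it. The 7 were LINC01268 and LINC01355, both called higher, and LINC00998, LINC01473, LINC01135, LINC00652 and LINC00324, none of them called. None of the 100 held the response element core, which 3.57% of all promoters held, or the kappa B site, which 0.558% held. By call, the gamma activated site was in 2 of 19 higher, 0 of 22 lower and 5 of 59 uncalled promoters. A match is a run of letters and not a bound site.

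Most of the 10 largest rises had low control levels, which a choice by mean count and fold change favours. LINC00525, LINC00854, LINC01230, LINC01117 and LINC01342 had control means under 20 counts and passed the limit through the cytokine group. LINC00525 (chr7:47761476-47766772), a transcript of 3 exons, had 56.7 counts with cytokines and 3.47 in control cells in the authors' deposited count table, a log2 fold change of 4.03 ± 0.52 (SE; DESeq adjusted p = 9.35e-14). Its Cuffdiff level, from the second tool of the study, was 1.16 FPKM with cytokines and 0.0594 FPKM in control cells in the authors' deposited FPKM table, where FPKM is fragments per kilobase of transcript, scaled to depth. That control level is close to none. LINC00605 (chr14:103187221-103189028) stood at 163 counts with cytokines and 21.5 in control cells in the authors' deposited table, 2.92 ± 0.25 on the log2 scale (DESeq adjusted p = 2.22e-31), and at 2.22 and 0.297 FPKM in the same order. LINC01117 (chr2:176637710-176655958), whose promoter is shown above, had 81.4 counts with cytokines and 13.6 in control cells there, a log2 fold change of 2.58 ± 0.32 in that deposited table. All 3 were scarce in control cells.

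LINC00278, on chromosome Y (chrY:3002894-3102272), had 244 counts with cytokines and 26.1 in control cells in the authors' deposited table, or a log2 fold change of 3.22 ± 0.22 (DESeq adjusted p = 3.40e-49). ZFY, a zinc finger gene 20388 bases away on the same chromosome, had 1320 counts with cytokines and 1276 in control cells in that table, 0.05 ± 0.05 on the log2 scale, so the nearest coding gene was not called. LINC01268 (chr6:113868013-113873351) is now named MROCKI and is known in monocytes and macrophages as a transcript that acts on the neighbouring MARCKS gene. Its counts were 237 with cytokines and 69.8 in control cells in the authors' deposited table, or a log2 fold change of 1.76 ± 0.16 (DESeq adjusted p = 5.11e-26). MARCKS, a membrane protein substrate of protein kinase C, lies 4538 bases away and moved the other way, with 23925 counts with cytokines and 26324 in control cells in the authors' deposited table (log2 fold change -0.14 ± 0.02, DESeq adjusted p = 7.38e-10). RNA and neighbour thus differed in direction at this locus.

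LINC00237 (chr20:21087604-21106514) was the best measured of the large rises, and the authors' deposited table gave it 855 counts with cytokines and 380 in control cells, a log2 fold change of 1.17 ± 0.08. It was also the most abundant of them per length, at 12.4 FPKM with cytokines and 5.70 FPKM in control cells in the authors' deposited FPKM table. The 4 others, LINC00854, LINC01230, LINC01342 and LINC00908, had log2 fold changes between 1.16 and 2.42 in the authors' deposited count table. Their control means lay between 9.47 and 61.5 counts in that deposited table. LINC00854 is now annotated as the coding gene CCDC200, and 233 of its 3282 annotated exon bases lie opposite exons of TMEM106A, which also rose. How the counting treated strand is not stated, so reads of this pair may not be told apart.

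**Figure D2:**
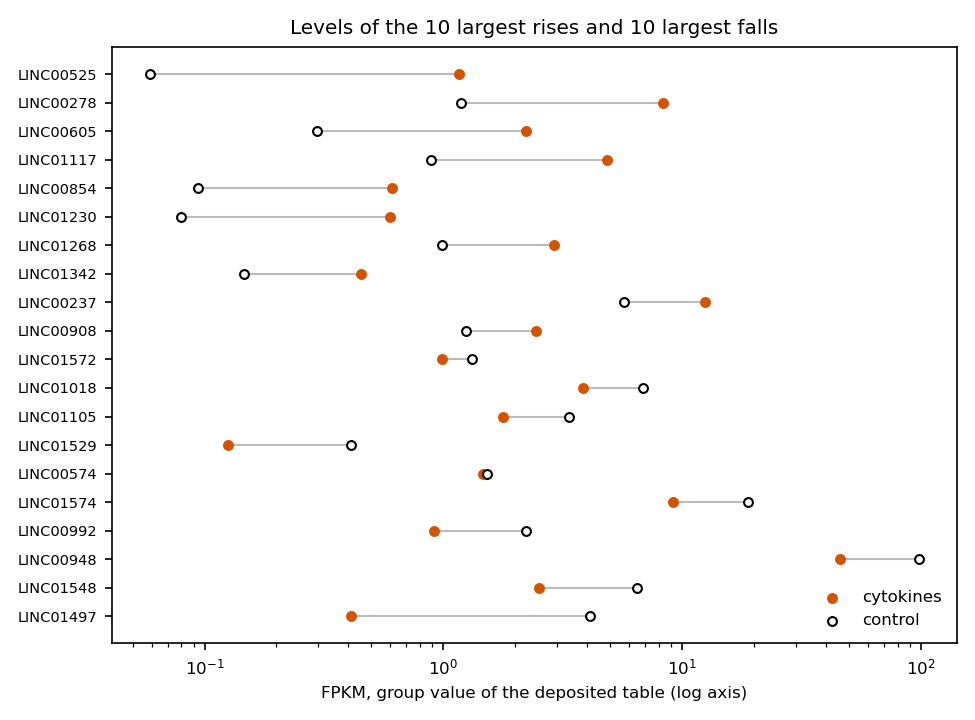
FPKM (log axis) of the 10 LINC loci with the largest called rise, above, and the 10 with the largest called fall, below, as group values of the deposited table; filled points are cytokines and open points control. Most rises have control values near or under 1 FPKM, while LINC00948 falls to 45.9 FPKM with cytokines, against 98.0 FPKM in control cells.

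Smaller rises were found at well expressed loci. LINC00511 (chr17:72323118-72640472), a transcript studied in many tumours, had 2732 counts with cytokines and 2102 in control cells in the authors' deposited table, or a log2 fold change of 0.38 ± 0.04 (DESeq adjusted p = 1.41e-17). LINC00907, with 174 assembled isoforms the most of any member, had 2093 counts with cytokines and 1539 in control cells there, a log2 fold change of 0.44 ± 0.05 in the deposited fit. LINC00346 (chr13:110863987-110870330), a single exon transcript, had 1213 counts with cytokines and 783 in control cells in the authors' deposited table, 0.63 ± 0.06 on the log2 scale. LINC00890, now SERTM2 and annotated as coding, had 456 and 245 counts in the same order and a log2 fold change of 0.89 ± 0.10 in that deposited table. These rises are many SE from 0, though each is under 2-fold.

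Among the falls, LINC01497 stood apart in size. LINC01497 (chr17:69961568-69983545) had 9.20 counts with cytokines and 97.4 in control cells in the authors' deposited table, or a log2 fold change of -3.41 ± 0.36 (DESeq adjusted p = 1.61e-20), and 0.413 FPKM with cytokines against 4.13 FPKM in control cells. KCNJ16, a potassium channel subunit gene 69884 bases away, moved the other way, with 1135 counts with cytokines and 686 in control cells in that deposited table (log2 fold change 0.73 ± 0.07). LINC01548 (chr21:33164809-33170649) had 338 counts with cytokines and 987 in control cells in the authors' deposited table, -1.54 ± 0.08 on the log2 scale. It lies 59252 bases from a locus that joins IFNAR2 and IL10RB, receptor chains for type I interferons and for IL-10 family cytokines. That locus had 3496 counts with cytokines and 1954 in control cells in the authors' deposited table, or a log2 fold change of 0.84 ± 0.04. At both falls the coding neighbour was thus called in the other direction.

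LINC01574 (chr5:176743205-176743871) and its neighbour fell together. It had 532 counts with cytokines and 1105 in control cells in the authors' deposited table (log2 fold change -1.05 ± 0.07), and UNC5A, a netrin receptor gene 66648 bases away, had 2866 and 8406 counts in the same order (log2 fold change -1.55 ± 0.03). LINC00948 (chr10:59736692-59756041) encodes myoregulin, a small membrane protein that restrains the calcium pump SERCA in muscle. LINC00948 had 585 counts with cytokines and 1279 in control cells in the authors' deposited table, or a log2 fold change of -1.13 ± 0.07 (DESeq adjusted p = 8.78e-66). By FPKM it was one of the most abundant members, at 45.9 FPKM with cytokines and 98.0 FPKM in control cells in the authors' deposited FPKM table. Its count over its FPKM implied a length only 0.107 times its annotated exon length, so the tools differed on its level per length. SLC16A9, a monocarboxylate transporter gene 690 bases away, had 1624 counts with cytokines and 2654 in control cells in that count table as deposited, -0.71 ± 0.04 on the log2 scale.

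LINC00261 (chr20:22547671-22578642) is known from endoderm differentiation and lies beside the pancreatic and hepatic transcription factor gene FOXA2. It was the most abundant called fall by mean count, though not per length. It had 1865 counts with cytokines and 3242 in control cells in the authors' deposited table, or a log2 fold change of -0.80 ± 0.04 (DESeq adjusted p = 1.19e-87). FOXA2, 2356 bases away, had 10168 counts with cytokines and 10853 in control cells there, a log2 fold change of -0.09 ± 0.02 in the deposited fit. Both were called lower, and the fall of the noncoding RNA was the larger on the log2 scale. That of FOXA2 was small, as the median log2 fold change over all loci with at least 1000 counts was -0.0556. LINC00094, now BRD3OS and annotated as coding, had 1974 counts with cytokines and 2598 in control cells in the authors' deposited table (log2 fold change -0.40 ± 0.04). BRD3, a bromodomain gene whose exons lie opposite it over 1283 of its 5954 exon bases, had 5221 counts with cytokines and 6937 in control cells in that deposited table, -0.41 ± 0.03 on the log2 scale. As the strand setting of the counting is not stated, reads of LINC00094 and BRD3 may not be told apart.

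The remaining large falls were modest in size. LINC00992, LINC01105, LINC01018, LINC00574, LINC01529 and LINC01572 had log2 fold changes between -1.12 and -0.84 in the authors' deposited count table. LINC01018 was the best measured of them, with 418 counts with cytokines and 752 in control cells in that deposited table. LINC00574 had 59.0 counts with cytokines and 115 in control cells in the authors' deposited count table, a log2 fold change of -0.96 ± 0.20. Its FPKM did not show this: 1.46 with cytokines and 1.52 in control cells in the authors' deposited FPKM table (Cuffdiff q = 0.914). LINC01572 likewise was not called in the authors' deposited FPKM table (Cuffdiff q = 0.248). LINC01529 (DESeq adjusted p = 0.0488) lay just inside the threshold in the authors' deposited count table.

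**Figure D3:**
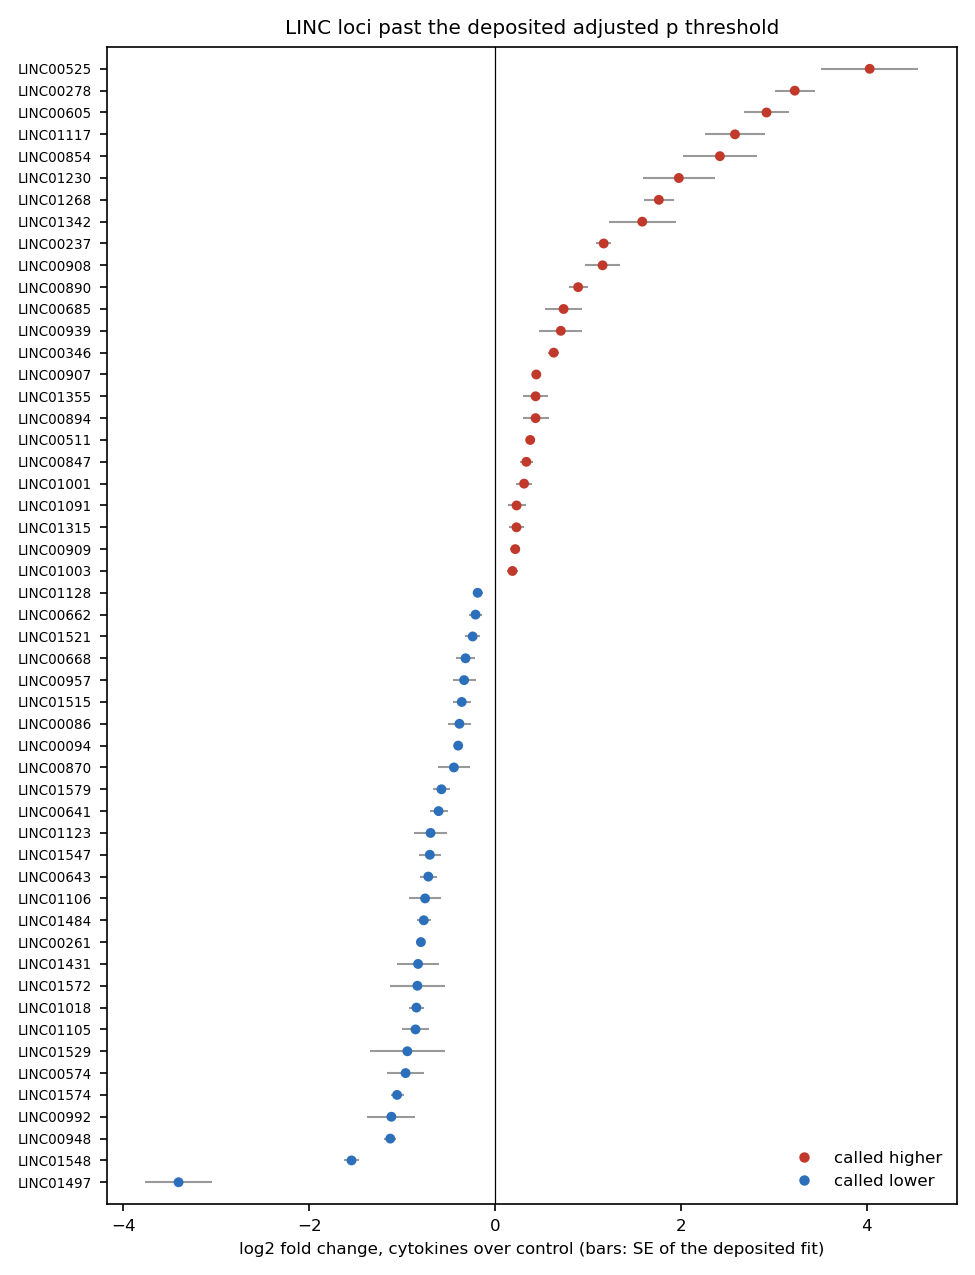
Log2 fold change, cytokines over control, of each called LINC symbol, with bars for the SE of the deposited fit; red is higher with cytokines and blue lower. LINC00525 is at the top with 4.03 and LINC01497 at the bottom with -3.41, and LINC00685, called on both its X and Y copy, is drawn once.

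Several of the most abundant LINC RNAs were not called. LINC00958 (chr11:12961842-12989597) had the highest mean, with 3754 counts with cytokines and 3912 in control cells in the authors' deposited table, or a log2 fold change of -0.06 ± 0.03 (DESeq adjusted p = 0.145). LINC00998, which encodes the small membrane protein SMIM30, had 3096 counts with cytokines and 3167 in control cells in that deposited table, -0.03 ± 0.04 on the log2 scale. LINC01006 had 1453 counts with cytokines and 1481 in control cells in the authors' deposited table, or a log2 fold change of -0.03 ± 0.05. At these 3 loci the difference was within 2 SE. LINC00657 (chr20:36045618-36051018) is NORAD, a conserved RNA that binds Pumilio proteins. It had the highest FPKM of the members, at 113 FPKM with cytokines and 126 FPKM in control cells in the authors' deposited FPKM table. Its count over its FPKM implied a length only 0.02 times its annotated exon length, so the tools differed on the level of LINC00657. The 2 tools gave it opposite signs: its log2 fold change was 0.08 ± 0.08 by counts (DESeq adjusted p = 0.526) and -0.15 by FPKM (Cuffdiff q = 0.0248) in the authors' deposited tables.

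The small-protein list held 9 LINC symbols whose transcripts were later found to encode a small protein. Of them 7 had reads, 0 were higher and 3 were lower in the authors' deposited count table, and 4 were not called, where 27.7% of all loci above the limit were higher and 33.4% lower. The lower ones were LINC00948, LINC00086 (log2 fold change -0.38 ± 0.12) and LINC00493, which shares its locus with DTD1 and had a log2 fold change of -0.25 ± 0.04 in that deposited table. LINC00116, the gene of mitoregulin, a protein of the inner mitochondrial membrane, had 367 counts with cytokines and 406 in control cells in the authors' deposited table and was not called. LINC01420 encodes NBDY, a protein of the messenger RNA decapping complex, and was called only by FPKM in the authors' deposited tables, at 29.3 with cytokines and 26.8 in control cells (Cuffdiff q = 0.00991). More widely, RefSeq lists 14 of the members as coding, of which 2 were higher and 3 lower in the authors' deposited count table, and 110 as long noncoding RNA, of which 23 were higher and 23 lower. Among all single-symbol coding loci above the limit, 30.2% were higher and 40.0% lower in that deposited table.

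A list of 16 LINC RNAs with a published role in pancreas, endoderm or signalling was also followed. Of them 14 had reads and 9 reached 20 counts in the authors' deposited table. There, 3 were higher (LINC01268, LINC00511 and LINC00346), 3 were lower (LINC00261, LINC00662 and LINC01370), and 6 were tested and not called, beside 27.7% higher and 33.4% lower among all loci above the limit. LINC01370 stood in a locus shared with another transcript, with 49.0 counts with cytokines and 111 in control cells in the authors' deposited table (log2 fold change -1.18 ± 0.22). LINC00662 had 620 counts with cytokines and 717 in control cells there, a small fall of -0.21 ± 0.07 on the log2 scale in the deposited fit. Of 25 long noncoding RNAs named without a LINC number, 9 were higher and 7 lower in the authors' deposited table, and 2 were not listed by that name. NORAD, among these 2, stands there as LINC00657, which was not called. Most of the called ones lay in loci with other symbols, such as NRIR with CMPK2, and H19 with INS and IGF2. Of all unnumbered single-symbol noncoding loci above the limit, 18.5% were higher and 12.7% lower in that deposited table. That set is unlike the list, so the shares cannot be compared directly. MALAT1, a nuclear speckle RNA, had 60379 counts with cytokines and 33919 in control cells there, a log2 fold change of 0.83 ± 0.04 in the deposited fit.

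Genes that were higher with cytokines lay near some LINC loci, and these LINC loci were higher, lower or not called themselves. An induced neighbour is a named locus within 100 kb that was called higher and at least 2-fold in the authors' deposited count table, with distances between assembled loci. It also had a mean of at least 20 counts, a limit that a locus can pass through its cytokine level alone. By this measure 25 of the 127 LINC loci (19.7%) had one, against 23.1% of 15741 other named loci with at least 20 counts in the authors' deposited tables. Among the LINC loci it was 6 of 25 called higher, 7 of 28 called lower and 12 of 74 not called, by the same deposited calls, and among other loci 30.5% of those higher, 19.6% of those lower and 20.8% of those not called. Assembled loci can run past their genes, and between annotated spans the count was 19 of 124 LINC loci (15.3%) against 17.5% of other loci in the same deposited table. It was then 4 of 24 called higher, 3 of 28 called lower and 12 of 72 not called, so the lower group moved most, to 10.7% between annotated spans against 25% between assembled loci. Of the 25 LINC loci with an induced neighbour, 24.0% were higher in the authors' deposited table, beside 19.7% of all LINC loci. Of the 3640 other loci with one, 37.4% were higher, beside 28.4% of all other loci there. The share of LINC loci lay under that of other loci by both measures, and the difference was not tested.

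The clearest pair that rose together was on chromosome 14. TNFAIP2, a gene named for its induction by TNF, lies 49782 bases from LINC00605 and had 3045 counts with cytokines and 172 in control cells in the authors' deposited table, or a log2 fold change of 4.14 ± 0.08. The locus of EXOC3L4 and RP11-736N17.8, 76662 bases from LINC00605, had 703 counts with cytokines and 22.3 in control cells in that deposited table, 4.98 ± 0.19 on the log2 scale. All 3 loci of this stretch were therefore higher. Between annotated spans, 3 further LINC loci called higher had an induced neighbour within 100 kb in the authors' deposited table: LINC00854, LINC01315 and LINC01342. TMEM106A, beside LINC00854, stood at 126 counts with cytokines and 36.7 in control cells in the authors' deposited table (log2 fold change 1.78 ± 0.23). LINC01342 (log2 fold change 1.58 ± 0.36 in the deposited table) lies 23048 bases from the locus of the epithelial microRNAs MIR200A, MIR200B and MIR429, which had 1855 counts with cytokines and 763 in control cells there. LINC01315 had 651 counts with cytokines and 555 in control cells in the authors' deposited table, a small rise of 0.23 ± 0.08 on the log2 scale. NFAM1, an immune receptor gene 11117 bases from it, had 767 counts with cytokines and 131 in control cells in that deposited table, and the transcript CTA-126B4.7, 68733 bases away, had 136 and 12.7 counts in the same order.

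Other strongly induced genes had a LINC RNA beside them that was not called. ISG20, an interferon-induced exonuclease gene, had 4595 counts with cytokines and 59.7 in control cells in the authors' deposited table, and LINC01586, 30560 bases away, had 59.6 and 56.8 counts in the same order. CEBPB, a transcription factor of the acute phase response, had 2127 counts with cytokines and 341 in control cells in that deposited table, and LINC01273, 14154 bases away, had 30.3 and 29.4 counts in the same order. JUN, an AP-1 subunit, had 5371 counts with cytokines and 1748 in control cells in the authors' deposited table. LINC01135, now JUN-DT and starting within 1106 bases of JUN, had 22.1 counts with cytokines and 25.8 in control cells in that deposited table, or a log2 fold change of -0.22 ± 0.38. The change of JUN, 1.62 ± 0.04 as a log2 fold change, lies more than 4 SE of LINC01135 from that value, by the authors' deposited SE.

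ZC3H12A encodes Regnase-1, an RNase that degrades messenger RNAs of cytokines, and its start lies 148 bases from LINC01137, now LITATS1. ZC3H12A had 829 counts with cytokines and 66.8 in control cells in the authors' deposited table, or a log2 fold change of 3.63 ± 0.13. LINC01137 had 175 counts with cytokines and 137 in control cells there, 0.35 ± 0.15 on the log2 scale, and missed the threshold in the authors' deposited count test (DESeq adjusted p = 0.0529). It was called higher in the authors' deposited FPKM table (log2 fold change 0.34, Cuffdiff q = 0.0259) and after re-centring of the deposited fold changes on abundant loci (0.41, adjusted p = 0.0205). The change of the RNA was in each case the smaller one of the pair. Of 11 LINC loci that start head to head within 1 kb of a coding start, without overlap of the starts, 0 were higher and 2 lower in the authors' deposited count table. These were LINC01521 beside PATZ1 and LINC01547 beside SLX9, where 27.7% of all loci above the limit were higher and 33.4% lower. Pairs on opposite strands with overlapping starts were left out of the 11. Among those, LINC00894 (76 bases from the start of EOLA2) and LINC00909 (638 bases from that of ZNF407) were called higher. LINC01006 and LINC01024, left out likewise, were not called. IRAK2, a kinase of the IL-1 receptor pathway, had 568 counts with cytokines and 70.3 in control cells in the authors' deposited table, and LINC00852, 40674 bases away, had 37.6 and 25.1 counts in the same order (DESeq adjusted p = 0.192). SOX9, a ductal and progenitor transcription factor gene, had 79.6 counts with cytokines and 15.0 in control cells in that deposited table and is the nearest coding gene of LINC01152, which was not called.

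Other induced neighbours lay beside LINC loci that were called lower, and beside LINC01001, which was called higher. LINC01001 had a log2 fold change of 0.31 ± 0.09 in the authors' deposited count table (DESeq adjusted p = 0.000857). LINC01548, one of the large falls, had OLIG2, a transcription factor gene of the nervous system, within 100 kb of its assembled locus but 135613 bases away between annotated spans, with 158 counts with cytokines and 36.7 in control cells for OLIG2 in the authors' deposited table. LINC01529, called lower, lies 43431 bases from the locus of IGFLR1 and U2AF1L4, which had 1353 counts with cytokines and 499 in control cells in that deposited table. LINC00641 and LINC00957, both called lower, had ARHGEF40 and BLVRA, the gene of biliverdin reductase, as induced neighbours in the authors' deposited table, but at 109831 and 231829 bases between annotated spans. For LINC01572 and the locus of RP11-346C20.3 and RP11-346C20.4, and for LINC01001 and the interferon-induced locus of IFITM1 and IFITM2, the distances between annotated spans were 395236 and 168019 bases. Apart from that of LINC01529, these pairs are thus within the window by assembled loci alone.

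LINC00337, LINC01124, LINC01024, LINC00616 and LINC00683 were not called in the authors' deposited count table and had an induced neighbour under both measures of distance. CHD5, a chromatin remodeller gene 55919 bases from LINC00337, had 128 counts with cytokines and 17.1 in control cells in the authors' deposited table. GAD1, the glutamate decarboxylase gene that makes GABA, lies 98646 bases from LINC01124 and had 153 counts with cytokines and 47.9 in control cells in that deposited table. NRG2, a growth factor gene 29558 bases from LINC01024, had 342 counts with cytokines and 110 in control cells in the authors' deposited table. SLC7A11, the cystine transporter gene, lies 33370 bases from LINC00616 and had 448 counts with cytokines and 190.4 in control cells in that deposited table. The induced neighbour of LINC00683 was the locus listed as LINC00908, 3882 bases away. RefSeq names LINC00683 and LINC00908 separately, but the GENCODE annotation places both in the same gene, LINC00683. They may thus be parts of the same gene, though they were counted here as separate loci, and LINC00683 as having an induced neighbour.

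**Figure D4:**
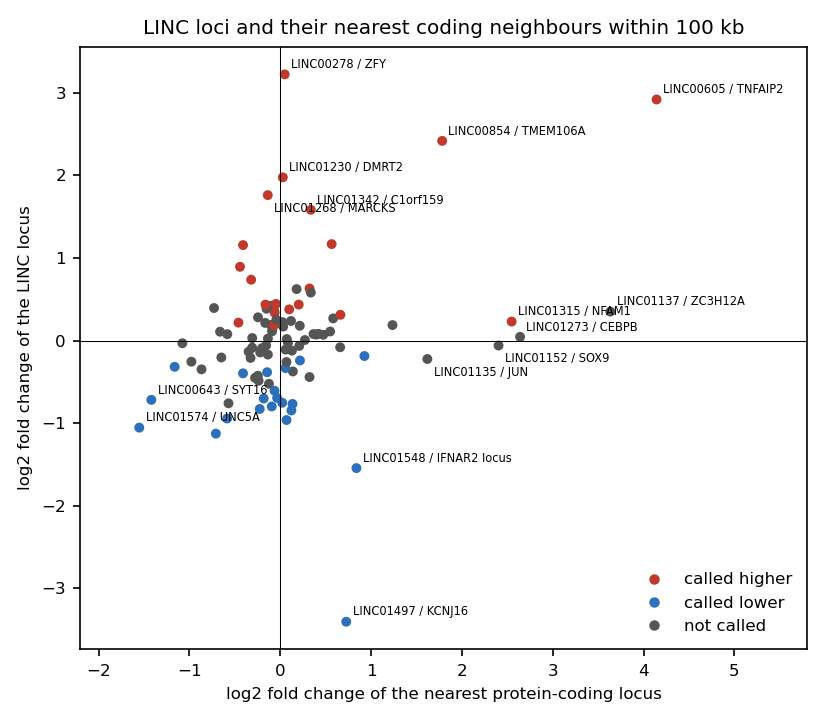
Log2 fold change of each LINC locus against that of its nearest protein-coding locus with at least 20 counts, within 100 kb between annotated spans (100 LINC loci), coloured by the call of the LINC locus. Points spread along both axes: LINC00605 and TNFAIP2 are high on both, ZC3H12A, CEBPB and JUN are high beside LINC loci near 0, and LINC01497 is low beside KCNJ16.

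Each LINC locus was set beside its nearest named protein-coding locus with at least 20 counts, which need not be the nearest coding gene. Over all 100 LINC loci with such a locus within 100 kb, the log2 fold changes of the pair had a Spearman correlation of 0.238 and a Pearson correlation of 0.285, in the authors' deposited table. This is a description across genes, which share libraries and in some cases reads, and are not independent. Of 20 LINC loci called higher, the nearest coding locus was called higher at 8 and lower at 7 in that deposited table. Of 21 called lower, it was higher at 5 and lower at 10. Over all single-symbol coding loci of at least 20 counts in that deposited table the shares were 30.2% higher and 40.0% lower. The nearest coding loci include some with several symbols, so the sets are not alike. LINC00643, among the lower ones, shares 917 exon bases on the same strand with its neighbour SYT16, so part of their reads may be common.

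By the second tool the picture was alike in direction. Cuffdiff tested 115 of the 127 LINC loci and called 24 higher and 23 lower at q under 0.05 in the authors' deposited FPKM table, where it called 36.4% of all tested loci. Of the LINC loci called by either tool, 39 were called by both, all 39 in the same direction, in the authors' deposited tables. A further 9 were called by counts alone and 8 by FPKM alone, taking loci that Cuffdiff tested. The median level was 2.35 FPKM with cytokines and 2.51 FPKM in control cells, and 20 LINC loci had at least 10 FPKM in control cells in the authors' deposited FPKM table. Cuffdiff also tested 471 assembled isoforms of these loci and called 18 higher and 20 lower in the authors' deposited isoform table (8.07%), against 9.87% of all tested isoforms. These isoforms belonged to 25 symbols, none of which had isoforms called in both directions.

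The tools did not put all loci at a like level. A length implied by the count over the FPKM was set against the annotated exon length, and lay within 5 times of it at 97 of 120 LINC loci in the authors' deposited tables. The median ratio was 0.507, with 3 loci above 5 and 20 below 0.2, from those deposited tables. LINC01001, LINC01296 and LINC01106 had ratios of 34.9, 30.1 and 16.2, and LINC00657 had 0.02 and LINC01278 0.05 by the deposited values. LINC01001 had 602 counts with cytokines and 485 in control cells in the authors' deposited count table, but 0.0848 and 0.114 FPKM in the same order. Its direction thus differed between the tables, but Cuffdiff did not test it, so the direction by FPKM carries no test.

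**Figure D5:**
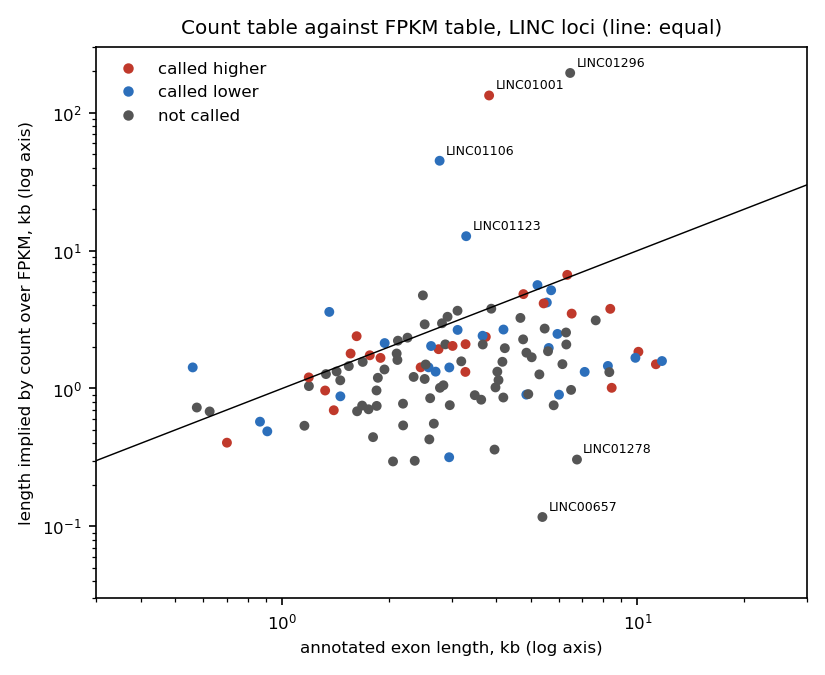
Length implied by mean count over FPKM against annotated exon length, both in kb on log axes, for the 120 LINC loci with both values; the line marks equality. LINC01296, LINC01001 and LINC01106 lie far above the line, and LINC00657 and LINC01278 far below.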

How the data were processed

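Directional poly(A) RNA libraries of EndoC-βH1 cells were made from 3 cytokine-exposed and 3 control samples, per the labels' protocols. The submitters' processing notes name STAR 2.5.2b, StringTie, Cuffdiff 2.2.1 and the authors' DESeq run, with build hg38. The sources used here do not name the counter, its strand setting or the annotation. Per the file headers, the signal deposited in the count tables is the mean normalized count over the 6 libraries. The log2 values deposited there are fold changes, cytokines over control, and their SE. The score column deposited by the authors is the statistic of each test, and the deposited p-values, with their adjusted forms (q-values), come from the authors' tests. Per the file headers, each deposited FPKM value is one group's level from Cuffdiff.

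From these, each group's mean was computed by combining the overall mean with the fold change, loci were joined by identifier, and neighbours were found within 100 kb between the loci of the FPKM table. Neighbours were taken from named, tested loci with a mean of at least 20 counts. The tables give no value per library, so the planned test on counts was not run and calls rest on the authors' adjusted p under 0.05. A Benjamini-Hochberg adjustment computed again differed from theirs by at most 1.53e-15. The code was tested on simulated data. Names, exons and spans came from GENCODE release 44 and RefSeq. Of Ensembl transcripts found in that release, 183684 of 189999 lay inside the authors' loci. The members, lists and rules were chosen with earlier results of these data known. Genes were named by rule: the 10 highest means and control FPKM, the 10 largest called rises and falls, members at the limit, induced neighbours with at least 50 counts, and list members. Nearest coding neighbours, members with disagreeing tables and smaller called members were named after their values were seen. Alternatives were other limits, thresholds and windows, Cuffdiff, and re-centring on loci with at least 1000 counts. The work used matplotlib 3.10.9, scipy 1.17.1 and pandas 2.3.3 in Python 3.11.15, with numpy 2.4.6.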

Additional observations from a re-analysis of the deposited data

How the results depend on the processing

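No paired analysis was possible because the authors' deposited tables give groups and no values per library, and leaving out each replicate was not run for the same reason. The counts of called LINC loci stayed within 1.5 times of 25 higher and 28 lower under Cuffdiff (24 and 23), an adjusted p under 0.01 (23 and 22), limits of 10 counts (28 and 33) or 50 counts (20 and 26), no limit (36 and 33), and re-centring (28 and 23). The same held with the X and Y copies counted once (24 and 28) and for loci whose implied length was within 5 times of the annotated one (19 and 19 of 97), both chosen after seeing the data. Their median log2 fold change, -0.03, was 0.02 after re-centring and 0.02 with multi-symbol loci. They were 10 and 5 with changes of at least 2-fold, and 58 and 46 of 197 with multi-symbol loci included. LINC loci with an induced neighbour numbered 25, against 14 in a window of 25 kb, 46 in a window of 500 kb, 67 with any fold, and 14 for coding neighbours between annotated spans, a setting chosen after seeing the data. Cuffdiff turned LINC00998 to 0.0051 (log2 fold change) and LINC00657 to -0.15, and re-centring by 0.0556 turned LINC00998 to 0.0231 and LINC01006 to 0.0285; the cause was not tested. Cuffdiff did not call LINC00574 (-0.06) or LINC01572 (-0.42) and called LINC01420 (0.13), and re-centred LINC01529 (-0.89) was not called. Direction and call were kept by 27 of 32 named members with a Cuffdiff value and by 31 of 34 when re-centred. Low counts limit the loci near the limit, where the SE reached 0.524.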

Other observations

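Some LINC loci under the limit of 20 mean counts were called as well. Of 163 with an adjusted p in the authors' deposited count table, 11 were higher and 5 lower with cytokines. Of all 12993 tested loci under the limit, that deposited table called 6.70%, with 5.16% higher and 1.53% lower. LINC01556 had 29.8 counts with cytokines and 0.175 in control cells there by the deposited fit, and was listed at 0 FPKM in control cells. LINC00487 had 23.9 counts with cytokines and 0.642 in control cells in that deposited table. Among the falls, LINC01016 had 2.09 counts with cytokines and 27.3 in control cells in the authors' deposited table, or a log2 fold change of -3.71 ± 0.73 (DESeq adjusted p = 1.60e-06). These loci are high in a single group, which their low mean hides from a limit on the mean.

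LINC symbols also stood in loci with more than 1 symbol, 70 of them with at least 20 counts in the authors' deposited table. The locus of LINC00449 and LINC01232 had 960 counts with cytokines and 173 in control cells in that deposited table, or a log2 fold change of 2.47 ± 0.10. The locus of GCNT4, a glycosyltransferase gene, and LINC01336 had 418 counts with cytokines and 85.0 in control cells in the authors' deposited table (log2 fold change 2.30 ± 0.13). The genes of a shared locus cannot be told apart.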
